A study of Mus musculus with 6 samples.

Results

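The co-inhibitory receptors and ligands of T cells were examined in mouse Th17 cells, the helper T cell class that secretes interleukin 17, from control and RTF1-deficient cultures. RTF1 is a nuclear protein that travels with RNA polymerase II and promotes ubiquitination of histone H2B. The 10 genes were taken by symbol from the 31017 genes of the count table, with earlier results of these data known. They were the receptor genes Ctla4, Pdcd1, Lag3, Havcr2, Tigit, Btla and Cd160, and Cd200, Cd274 and Vsir, whose products act wholly or in part as ligands. RNA was sequenced from 3 control libraries (labelled WT) and 3 RTF1-deficient libraries (labelled KO), all from Th17 cells differentiated in culture. The labels name no strain, age, allele, Cre driver or time in culture, and do not say whether replicates came from separate animals. Y-linked counts (below) show that replicate 3 of each group held cells of a male, unlike the other libraries. The p-values thus measure the spread between these libraries, which includes that difference and may otherwise be technical. The study asked how loss of RTF1 alters gene expression in these cells.

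Co-inhibitory receptors set the upper limit of T cell activation. Most carry tyrosine motifs in their cytoplasmic tails that recruit phosphatases, and CTLA-4 also competes with the costimulatory receptor CD28 for the ligands CD80 and CD86. Activated T cells raise several of these receptors, and in helper T cells that have been stimulated for long they often rise together.

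The levels did not move together here. Relative to control, Ctla4, Btla and Cd200 were lower in KO, by 4.24-fold, 3.47-fold and 3.07-fold, whereas Cd274, Pdcd1 and Havcr2 were higher, the first 2 by 4.66-fold and 2.09-fold and Havcr2 from 0.164 ± 0.147 to 6.68 ± 0.955 CPM (a gene's counts scaled to a common library size; mean ± SD of 3 libraries). The other 4 genes, Lag3, Tigit, Cd160 and Vsir, did not pass the test. A gene was called when the adjusted p of edgeR's quasi-likelihood test, computed over all 14268 tested genes, was under 0.05. By this rule 6 of the 10 genes were called, 3 lower and 3 higher, against 46.1% of all tested genes (22.9% lower and 23.2% higher), so the share called was near the background and is not by itself a result about these genes. Their median log2 fold change was −0.24, with a range of −2.09 to 5.08, and that of all tested genes was 0.013. All 10 genes passed the filter on low counts, but Havcr2 passed only through its KO libraries and so had to differ. Without it, 5 of 9 were called. The groups did not overlap for the 6 called genes and overlapped for the other 4, while 57.9% of all tested genes had groups that did not overlap.

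**Figure D1:**
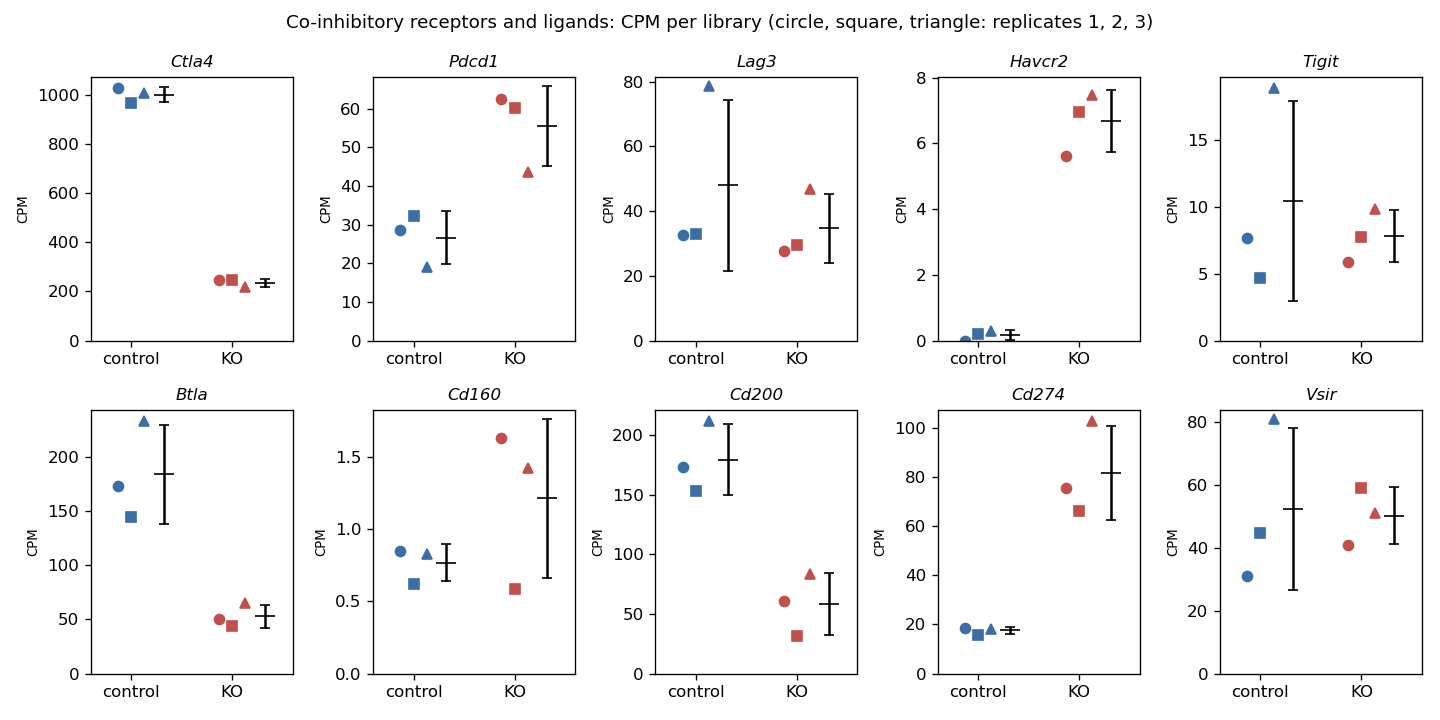
CPM of each gene in each library, with control in blue and KO in red, circles, squares and triangles for replicates 1, 2 and 3, and a black bar for the mean with its SD (n = 3). Each panel has its own linear axis from 0. Ctla4, Btla and Cd200 lie lower in every KO library, Pdcd1, Havcr2 and Cd274 higher, and control replicate 3 stands above the other libraries for Lag3, Tigit and Vsir.

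Library totals ran from 16489813 to 51271226 counts. Rtf1 was read as a check of the labels, and its CPM was 94.0, 91.2 and 88.3 in control and 45.3, 30.4 and 26.2 in KO (log2 fold change −1.42, SE 0.191, edgeR adjusted p = 0.000755). The KO libraries thus kept 0.373 of the control level of the transcript. Replicate 3 of each group carried 11376 (control) and 5147 (KO) counts of 4 Y-linked genes, against 1 to 3 in the other libraries. Replicate 3 thus held cells of a male and the other libraries did not, so replicate 3 had a separate animal source. The fit was therefore repeated on libraries 1 and 2 alone. All 5 T cell markers were present, their summed level being 1024 to 1306 CPM in control and 947 to 1191 CPM in KO. Single markers moved in opposite directions within this sum: Cd3e and Cd3g were called higher (log2 fold change 0.71 and 0.72), and Cd247 and Cd4 lower (−0.41 and −0.94). The Th17 markers Il17a, Il17f, Il23r and Ccr6 were each called lower. In bulk RNA, fewer cells of a type and less RNA per cell cannot be told apart.

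Ctla4 encodes CTLA-4, the receptor that binds CD80 and CD86 in competition with CD28. It had by far the highest level per transcript length of the 10 genes. Its CPM was 1028, 969 and 1008 in replicates 1, 2 and 3 of control, and 245, 246 and 217 in those of KO. The KO libraries thus lay close together and far under every control library. The log2 fold change was −2.09 (SE 0.121, edgeR adjusted p = 3.9e-05), and it stayed between −2.14 and −2.03 when any single library was left out. The gene lies on chromosome 1 (GRCm38, 60887000 to 60915832, + strand), between Cd28 and Icos, its relatives of the same receptor family. Cd28, 113641 bases away, held 430 CPM in control and 432 in KO (log2 fold change 0.007, SE 0.239, adjusted p = 0.983). Icos, 62095 bases to the other side, held 197 and 192 CPM (log2 fold change −0.038, SE 0.336, adjusted p = 0.934). Neither neighbour passed the test. Their 95% intervals were wide, and the direction of both turned between settings.

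Because Ctla4 moved while its genomic neighbours were not called, the sequence just before its annotated start is shown, with those of Pdcd1, Havcr2 and Cd274, which moved the other way. RefSeq (GRCm38.p6) gave a window for 9 of the 10 genes. Exonic bases are left out, RefSeq's start of Ctla4 lies inside the longer GENCODE gene, and the sequences run 5′ to 3′ toward the start. Ctla4 is at chr1:60908775-60909024 (+ strand), Pdcd1 at chr1:94052554-94052803 (− strand), Havcr2 at chr11:46454681-46454930 (+ strand), and the last 47 bases before Cd274 at chr19:29367391-29367437 (+ strand). Capitals mark GGAAA, the core that NFAT factors bind, or TGANTCA, the AP-1 motif, on either strand. No 2 matches of different motifs overlap.
Ctla4: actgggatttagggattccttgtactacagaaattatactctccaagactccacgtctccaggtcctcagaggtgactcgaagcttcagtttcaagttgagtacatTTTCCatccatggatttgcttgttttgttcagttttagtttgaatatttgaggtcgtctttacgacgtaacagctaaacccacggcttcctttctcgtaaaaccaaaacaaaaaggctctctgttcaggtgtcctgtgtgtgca
Pdcd1: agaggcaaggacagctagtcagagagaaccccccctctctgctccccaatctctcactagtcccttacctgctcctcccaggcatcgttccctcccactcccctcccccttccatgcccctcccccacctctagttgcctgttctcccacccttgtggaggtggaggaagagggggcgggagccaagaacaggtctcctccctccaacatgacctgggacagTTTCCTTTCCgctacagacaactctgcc
Havcr2: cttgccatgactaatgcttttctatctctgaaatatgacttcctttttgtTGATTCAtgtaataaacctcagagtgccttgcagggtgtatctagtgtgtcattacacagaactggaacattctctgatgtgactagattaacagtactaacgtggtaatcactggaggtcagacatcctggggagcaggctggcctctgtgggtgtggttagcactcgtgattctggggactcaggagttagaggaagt
Cd274: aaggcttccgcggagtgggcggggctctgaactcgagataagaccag

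GGAAA matched once in the Ctla4 window, 144 bases before the start, and at 28 and 23 bases before that of Pdcd1. In the Cd274 window it matched 120 bases before the start, in the stretch that overlaps exons of Plgrkt and is not shown. It is short and occurred in 55.6% of the 32851 windows of 250 bases searched. TGANTCA occurred in 6.75% of them, and matched in the Havcr2 window 200 bases before the start. The STAT motif TTCNNNGAA (7.02% of windows) and the IRF motif (GAAA, any 2 bases, GAAA; 2.98%) matched in none of these 4 genes' windows. A match is a description of letters only.

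Btla encodes BTLA, an immunoglobulin-family receptor whose ligand is the TNF receptor family member HVEM, the product of Tnfrsf14. Control libraries held 174, 145 and 234 CPM of Btla, and KO libraries 50.6, 44.0 and 64.9 CPM. Replicate 3 was the highest of each group, and the groups were well apart (log2 fold change −1.79, SE 0.206, edgeR adjusted p = 0.000419). Cd200 encodes a membrane glycoprotein that signals to the inhibitory receptor CD200R1 on other cells. Its CPM was 173, 153 and 212 in control and 60.7, 31.4 and 83.6 in KO. Every KO library lay under every control library, although the KO libraries were far apart from each other, with replicate 2 the lowest (log2 fold change −1.62, SE 0.307, edgeR adjusted p = 0.00326). Leaving out a single library moved it between −1.97 and −1.31. Btla (45224315 to 45257670, + strand) and Cd200 (45382135 to 45409053, − strand) are neighbours on chromosome 16, with no other protein-coding gene of the table in the 124465 bases between them. The next gene beyond Btla, Atg3, was not called (log2 fold change 0.24, adjusted p = 0.172), and neither was Gm609 beyond Cd200 (−0.034, adjusted p = 0.941).

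Cd274 encodes PD-L1, the ligand of PD-1, which interferons are known to induce. Control libraries held 18.6, 15.8 and 18.2 CPM, and KO libraries 75.7, 66.3 and 103 CPM. The lowest KO library was thus far above the highest control library (log2 fold change 2.22, SE 0.180, edgeR adjusted p = 0.000116). On chromosome 19 (29367455 to 29388095, + strand) both neighbours of Cd274 were called higher as well. Of all tested genes 23.2% were called higher, so these calls are not by themselves a result about the locus. Plgrkt, a plasminogen receptor gene on the opposite strand whose start lies 65 bases away, had 26.4 CPM on average in control against 53.9 in KO (log2 fold change 1.02, SE 0.140, adjusted p = 0.000808). Pdcd1lg2, which encodes PD-L2, the second ligand of PD-1, lies 22824 bases to the other side. It held 6.14, 4.25 and 3.64 CPM in control and 15.5, 14.3 and 16.0 in KO, again without overlap (log2 fold change 1.73, SE 0.224, adjusted p = 0.000657). Of the exonic bases of Cd274, 14.1% overlap an unnamed gene on the opposite strand, and whether reads were counted by strand is not given in the sources used here, so its level is uncertain to that extent.

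Pdcd1 encodes PD-1, which recruits the phosphatase SHP-2 when it binds either ligand. The receptor rose together with its ligands. Its CPM was 28.6, 32.3 and 19.0 in control and 62.6, 60.3 and 43.8 in KO, with replicate 3 the lowest of each group and no overlap between groups (log2 fold change 1.06, SE 0.217, edgeR adjusted p = 0.00453). Without KO replicate 3 or any other single library the value stayed between 0.81 and 1.22 and the call was kept.

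Havcr2 encodes TIM-3, a receptor of Th1 and repeatedly stimulated T cells. It was all but absent from control, with 0, 10 and 12 counts in replicates 1, 2 and 3, or 0, 0.206 and 0.285 CPM. The count of 0 in control replicate 1 allows a level of up to 0.182 CPM (3 counts, counting error only). KO libraries held 148, 260 and 147 counts, or 5.62, 6.94 and 7.47 CPM. The gene thus went from traces to a low but steady level in all 3 KO libraries (log2 fold change 5.08, SE 0.525, edgeR adjusted p = 0.000264). The fitted fold change of a gene this low in control depends on the small count that the fit adds, and it ran from 4.69 to 5.41 as single libraries were left out.

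Lag3, Tigit, Vsir and Cd160 were not called, and the data leave room for sizeable differences in either direction. LAG-3 is a relative of CD4 that binds MHC class II. Lag3 held 32.6, 33.0 and 78.6 CPM in control and 27.6, 29.5 and 46.9 in KO. Replicate 3 was the highest of each group, and the groups overlapped only through KO replicate 3 (log2 fold change −0.48, 95% interval −1.28 to 0.32, edgeR adjusted p = 0.294). With the replicate number as a block Lag3 was called lower (log2 fold change −0.39, adjusted p = 0.0438), while without control replicate 3 the fold change was 0.017 (adjusted p = 0.957). TIGIT binds PVR and nectins in competition with the activating receptor CD226. Tigit held 7.66, 4.71 and 18.9 CPM in control and 5.88, 7.72 and 9.81 in KO, so that KO lay within the control range (log2 fold change −0.43, 95% interval −1.46 to 0.61, adjusted p = 0.472). Its direction rested on control replicate 3, without which the fold change was 0.30 (adjusted p = 0.403).

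Vsir encodes VISTA, which acts as a receptor and as a ligand. It held 31.1, 44.6 and 80.9 CPM in control and 40.7, 58.9 and 51.0 in KO, again within the control range (log2 fold change −0.061, 95% interval −0.76 to 0.64, edgeR adjusted p = 0.885). Without control replicate 3 it was 0.34 (adjusted p = 0.197), and its sign also turned with library size as the only scaling, with the replicate block, and without KO replicate 1. CD160 is a further receptor for HVEM. Cd160 was near the limit of detection in every library, with 14, 30 and 35 counts in control and 43, 22 and 28 in KO, or 0.851, 0.619 and 0.832 CPM against 1.63, 0.587 and 1.42 CPM. KO replicate 2 was the lowest of the 6 libraries and the other KO libraries were the highest (log2 fold change 0.66, 95% interval −0.37 to 1.68, adjusted p = 0.262). Without KO replicate 2 the fold change was 1.01 (adjusted p = 0.0962).

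To compare levels between genes, CPM was divided by the exonic length in kilobases, giving RPKM. On this scale Ctla4 led in control with 430 ± 12.95 (SD, n = 3), followed by Btla (54.2 ± 13.4), Cd200 (54.0 ± 8.98), Lag3 (22.8 ± 12.5), Pdcd1 (13.8 ± 3.56), Tigit (11.3 ± 8.13), Vsir (10.4 ± 5.14), Cd274 (4.84 ± 0.425), Cd160 (0.290 ± 0.0487) and Havcr2 (0.0602 ± 0.0541). Btla and Cd200 overlapped, as did each next pair from Lag3 to Vsir, and the remaining steps did not. In KO the order was Ctla4 (101 ± 6.93), Pdcd1 (28.8 ± 5.33), Cd274 (22.5 ± 5.25), Cd200 (17.6 ± 7.89), Lag3 (16.4 ± 5.04), Btla (15.7 ± 3.14), Vsir (10.01 ± 1.82), Tigit (8.49 ± 2.14), Havcr2 (2.45 ± 0.351) and Cd160 (0.460 ± 0.209). Here each next pair from Pdcd1 to Btla overlapped, and so did Vsir and Tigit.

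The summed RPKM of the 10 genes was 595, 556 and 655 in control and 222, 214 and 235 in KO, and the KO mean was 0.372 of the control mean. Without Ctla4 the sum was 154, 140 and 222 in control and 117, 109 and 142 in KO, so that KO replicate 3 overlapped control. Ctla4 made up 74.2%, 74.8% and 66.1% of the summed RPKM in control and 47.4%, 49.2% and 39.7% in KO. Cd274 went from 0.863%, 0.783% and 0.768% to 9.41%, 8.54% and 12.1%, and Pdcd1 from 2.33% ± 0.766 to 12.9% ± 2.86 (SD, n = 3). Ctla4 thus remained the leading transcript in every library, but no longer held most of the sum in KO.

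**Figure D2:**
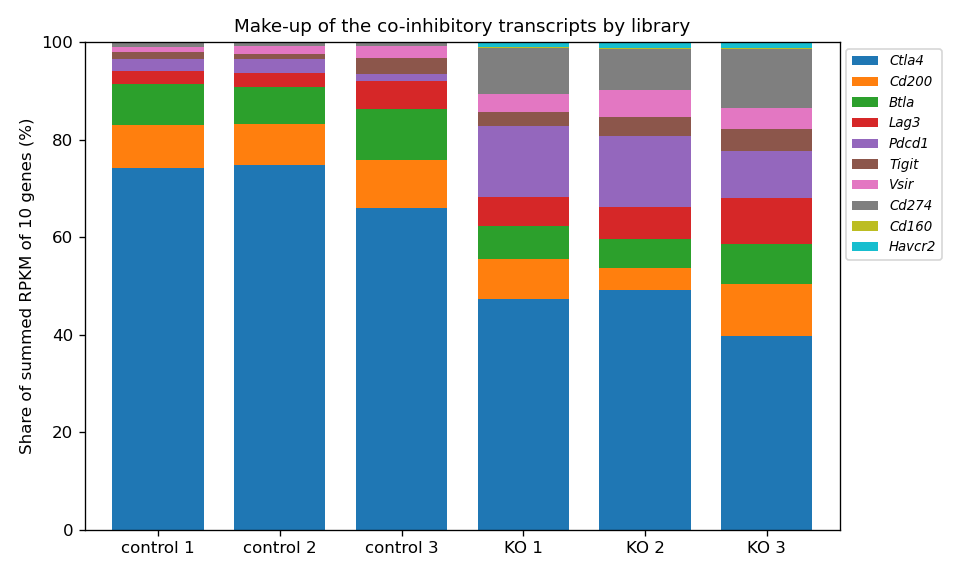
Share of each gene in the summed RPKM of the 10 genes (vertical axis, %), 1 stacked bar per library. The Ctla4 segment falls from 66.1% or more in control to 49.2% or less in KO, while the Pdcd1 and Cd274 segments widen.

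The ligands and counter-receptors of these 10 genes formed a list of 17, of which 15 were tested, with 6 called higher and 3 lower and a median log2 fold change of 0.26. H2-Aa, 1 of the 6, passed the filter only through KO. The share called, 9 of 15, stands against 46.1% of all tested genes and is not by itself a result about the list. The list and those that follow were drawn up with earlier results of these data known. The ligands shared by CTLA-4 and CD28 were not called: Cd80 held 10.8 ± 1.39 CPM in control and 9.29 ± 2.29 in KO (mean ± SD of 3 libraries; log2 fold change −0.22, 95% interval −0.72 to 0.28, edgeR adjusted p = 0.441), and Cd86 34.4 ± 6.48 and 41.2 ± 5.38 (0.26, 95% interval −0.12 to 0.64, adjusted p = 0.238). Among TIGIT ligands, Pvr rose from 54.97 ± 1.40 to 87.6 ± 12.9 CPM (log2 fold change 0.67, adjusted p = 0.00353), Nectin2 fell from 2.38 ± 0.831 to 0.507 ± 0.209 CPM (−2.27, adjusted p = 0.00401), and Nectin3 was not called (−0.20, adjusted p = 0.786). The binding partners of the 2 neighbours Btla and Cd200 rose while those genes fell. Tnfrsf14 went from 16.6 ± 3.52 to 23.2 ± 1.40 CPM (0.48, adjusted p = 0.0484), but failed the test in 9 of the 14 alternatives, with all libraries under upper-quartile factors (adjusted p = 0.0754), DESeq2 (0.0507), no filter (0.0651) and a filter on the mean count (0.0504), and in 5 of 6 fits with a single library removed. Cd200r1 went from 5.47 ± 2.53 to 12.5 ± 3.75 CPM (1.18, adjusted p = 0.0240), and failed it in 4 of those 6.

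Ligands ascribed to TIM-3 and LAG-3 moved in both directions. For TIM-3, Hmgb1 fell (log2 fold change −0.81, edgeR adjusted p = 0.00849), while Lgals9 (−0.25, adjusted p = 0.108) and Ceacam1 (0.95, adjusted p = 0.0911) were not called. With libraries 1 and 2 alone Ceacam1 was called higher (1.31, adjusted p = 0.0467), and so it was without KO replicate 1 (adjusted p = 0.0464). Ceacam1 and Hmgb1 share 30.4% and 22.7% of their 50-base stretches with other genes and are uncertain. For LAG-3, Lgals3, which encodes galectin-3, rose from 6.42 ± 1.36 to 14.6 ± 2.77 CPM (mean ± SD of 3 libraries; 1.18, adjusted p = 0.00320). The MHC class II genes parted: H2-Ab1 fell from 33.7, 38.1 and 53.0 CPM to 1.29, 1.20 and 2.69, whereas H2-Aa had 2, 4 and 3 counts in control and 28, 13 and 12 in KO. Selplg, which encodes a VISTA ligand, was not called (−0.093, adjusted p = 0.720). Fgl1 and Igsf11 were too low to test.

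Several of the genes that rose, among them Cd274, Pdcd1lg2, Cd200r1 and H2-Aa, are also expressed by myeloid cells. The summed level of 7 myeloid and dendritic cell markers was 1.09 to 1.31 CPM in control and 2.48 to 4.56 CPM in KO. Of these 7, only Csf1r and Cd14 were high enough to test. Csf1r was called higher (log2 fold change 1.72, edgeR adjusted p = 0.0256), and Cd14 was not called (1.36, adjusted p = 0.0646). Csf1r held 0.426, 0.206 and 0.451 CPM in control, and Cd14 0.243, 0.495 and 0.166. At the filter's cutoff of 0.325 CPM both were tested only because of their KO libraries, so the call of Csf1r was in part fixed by the filter. Among the untested markers, Lyz2 had 0, 2 and 4 counts in control and 46, 11 and 8 in KO, and Itgax 1, 2 and 0 in control and 20, 15 and 6 in KO, each without overlap. Itgam had no count in control replicate 1 and KO replicate 3, and Adgre1 none in 3 libraries. The untested Itgam, Adgre1 and Flt3 did not rise. Their means were 0.0306, 0.0474 and 0.352 CPM in control and 0.0216, 0.0445 and 0.296 CPM in KO. The part of such cells in the result was not tested. The summed level of 5 B cell markers was 1.24 to 3.09 CPM in control and 1.74 to 2.62 in KO, that of 4 CD8 T and NK cell markers 6.87 to 10.5 and 5.39 to 9.61, that of 4 fibroblast markers 0.790 to 1.33 and 0.240 to 0.873, and that of 3 erythroid markers at most 0.0826 CPM. Klrb1c and Ncr1, which mark NK cells, were at 0 in every library.

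**Figure D3:**
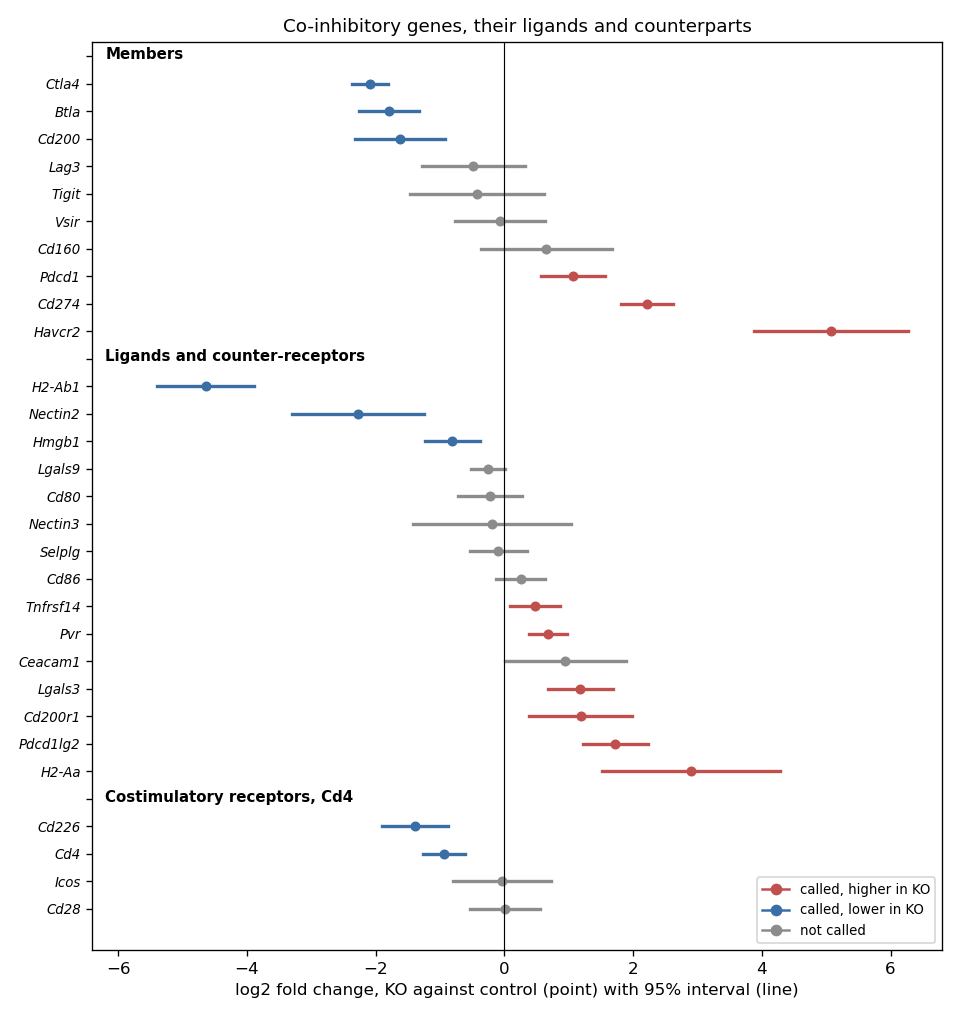
Log2 fold change of KO against control (horizontal axis; point) with its 95% interval (line) for the 10 genes, the 15 tested ligands and counter-receptors, and 4 costimulatory receptors or coreceptors. Red and blue mark genes called higher and lower in KO, and grey those not called. The 10 genes run from Ctla4 at −2.09 to Havcr2 at 5.08, on both sides of 0.

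Of 4 related activating receptors and coreceptors, Cd28 and Icos were not called (above) and the other 2 fell, while 46.1% of all tested genes were called. Cd226, which competes with TIGIT, had 21.2, 20.8 and 33.6 CPM in control and 9.45, 8.25 and 11.4 in KO (log2 fold change −1.39, SE 0.226, edgeR adjusted p = 0.00170). Cd4, next to Lag3 on chromosome 6 at a distance of 16140 bases, had 443, 477 and 539 CPM in control and 254, 218 and 290 in KO (log2 fold change −0.94, SE 0.144, adjusted p = 0.00132). Within-library ratios of counts, which need no scaling between libraries, were therefore formed for 5 pairs that share or form a ligand bond. The ratio of Ctla4 to Cd28 was 2.87, 2.71 and 1.76 in control and 0.789, 0.524 and 0.421 in KO, a difference of −2.10 on the log2 scale. The 2 genes thus changed places in counts, with more Ctla4 than Cd28 counts in each control library and fewer in each KO library. Counts were not divided by exonic length, which is 2330 bases for Ctla4 and 6122 for Cd28. The order of counts is therefore not an order of level per length. The ratio of Tigit to Cd226 went from 0.362, 0.226 and 0.562 to 0.623, 0.935 and 0.862 (log2 difference 1.15), higher in every KO library although Tigit itself was not called.

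The ratio of Btla to Tnfrsf14 went from 11.5, 10.3 and 11.3 to 2.09, 2.04 and 2.74 (log2 difference −2.28), close to constant within each group. That of Cd274 to Pdcd1 went from 0.651, 0.488 and 0.960 to 1.21, 1.10 and 2.35 (1.12). Pdcd1 thus had more counts in each control library and Cd274 in each KO library. Per exonic length, however, Pdcd1 stayed above Cd274 in KO replicates 1 and 2 (32.5 against 20.9 and 31.2 against 18.3 RPKM). In KO replicate 3 it lay below (22.7 against 28.4 RPKM). That of Lag3 to Cd4 was 0.0738, 0.0691 and 0.146 in control and 0.109, 0.135 and 0.162 in KO (0.56), with groups that overlapped. Two-sided exact permutation tests gave p = 0.1 for each of the 4 ratios with separate groups, the smallest value possible with 3 libraries against 3, and p = 0.3 for Lag3 to Cd4 (0.125 and 0.3 after Benjamini-Hochberg adjustment over 5 ratios). None can pass 0.05 in this design.

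**Figure D4:**
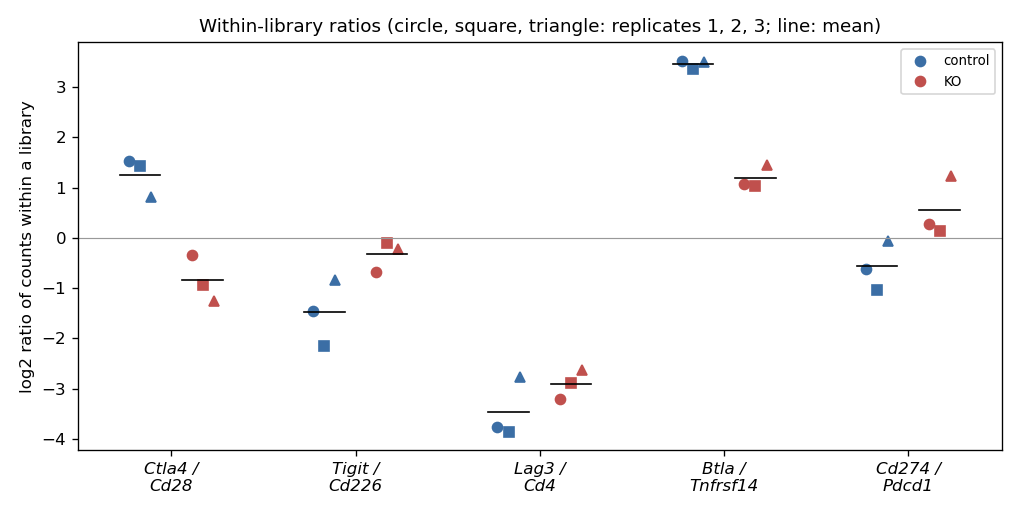
Log2 ratio of counts within each library (vertical axis) for 5 gene pairs, with control in blue and KO in red, circles, squares and triangles for replicates 1, 2 and 3, and a line for the mean. The groups are apart for 4 pairs and overlap for Lag3 to Cd4.

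Of 11 inhibitory receptors outside the 10 genes, 8 were tested and 2 called, against 46.1% of all tested genes. Cd96, another receptor for PVR, rose from 12.96 ± 2.87 to 33.7 ± 2.49 CPM (mean ± SD of 3 libraries; log2 fold change 1.38, edgeR adjusted p = 0.000722). Cd5, a scavenger-family receptor that tempers T cell receptor signals, fell from 503 ± 62.9 to 331 ± 39.6 CPM (−0.60, adjusted p = 0.00896), a call lost without KO replicate 2 (adjusted p = 0.0519). The other 6 tested receptors were not called.

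Genes that handle or transmit inhibitory signals formed a list of 22, all tested, with 5 called higher and 8 lower (median log2 fold change −0.10). The share called, 13 of 22, stands against 46.1% of all tested genes (23.2% higher and 22.9% lower). It is not by itself a result about the list. Among those that rose, Cmtm6, whose product keeps PD-L1 at the cell surface, had the smallest adjusted p, at 195 ± 19.2 CPM in control and 427 ± 38.7 in KO (mean ± SD of 3 libraries; log2 fold change 1.13, SE 0.129, edgeR adjusted p = 0.000391). Its relative Cmtm4 fell from 30.7 ± 1.35 to 10.9 ± 1.64 CPM (−1.49, SE 0.151, adjusted p = 0.000251). Lrba, whose product protects CTLA-4 from degradation, fell from 180 ± 19.8 to 112 ± 11.5 CPM (−0.69, adjusted p = 0.00307), and Trat1, an adaptor that brings CTLA-4 to the surface, from 3.07 ± 0.394 to 0.777 ± 0.402 CPM (−1.93, adjusted p = 0.00484). Sh2d1a, which encodes the adaptor SAP, fell as well (−1.54, adjusted p = 0.000143), but 26.6% of its exonic bases overlap Tenm1 on the opposite strand. Bag6, whose product binds the tail of TIM-3, and Adam17, a protease that sheds LAG-3, rose (0.54 and 0.44, adjusted p = 0.00448 and 0.0114). Of the phosphatase genes, Ptpn6 (SHP-1) fell and Ptpn11 (SHP-2) rose (−0.61 and 0.39, adjusted p = 0.00481 and 0.0222). Trat1, Ptpn6 and Ptpn11 were picked after their values were seen. The calls of Ptpn11, Adam17 and Bag6 did not hold in 5, 3 and 1 of 6 fits with a single library removed. Ptpn11 also failed the test with DESeq2 (adjusted p = 0.0551), and with libraries 1 and 2 alone Ptpn11 (0.0718) and Adam17 (0.0587) both failed it.

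Of 22 transcription factors and cytokine receptors known to act on these genes in T cells, all tested, 10 were called higher and 2 lower (median log2 fold change 0.61, against 0.013 over all tested genes). The share called, 12 of 22, was near the 46.1% of all tested genes and is not by itself a result about the list. Eomes, 1 of the 10, passed the filter on low counts only through its KO libraries and so had to differ (0.0608, 0.165 and 0.0713 CPM in control, 1.33, 1.09 and 2.24 in KO). Irf1, an interferon-induced factor that acts on Cd274, rose from 34.5 ± 6.28 to 197 ± 37.4 CPM (mean ± SD of 3 libraries; log2 fold change 2.51, SE 0.185, edgeR adjusted p = 7.9e-05). Il6st, which encodes the shared receptor chain of interleukins 6 and 27, rose from 75.4 ± 7.38 to 203 ± 2.98 CPM (1.43, adjusted p = 0.000104), while Il27ra, the other chain of the interleukin 27 receptor, fell from 58.5 ± 4.05 to 31.5 ± 5.47 CPM (−0.89, adjusted p = 0.00178). Nr4a2, a nuclear receptor gene induced by T cell receptor signals, rose from 14.2 ± 5.15 to 125 ± 32.8 CPM (3.16, adjusted p = 0.000163). Irf4 fell from 1317 ± 21.1 to 818 ± 59.2 CPM (−0.69, adjusted p = 0.00231).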

How the data were processed

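Column-purified total RNA was sequenced, per the labels' protocols. The values the authors deposited are whole-number counts per gene symbol. The submitters' processing notes name STAR, featureCounts, DESeq2 and the build mm10, without versions. The strand setting and annotation are not given in the sources used here. Groups and replicate numbers come from the sample titles, and 0 columns lacked a sample. The table's Cd244 was read as Cd244a.

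KO was compared with control over 6 libraries by edgeR 4.0.16 (R 4.3.3): TMM factors, filterByExpr by group (14268 of 31017 genes, holding 99.9% of counts), quasi-likelihood test, no covariate, Benjamini-Hochberg adjustment over all tested genes. The SE is the absolute log2 fold change over the square root of F, and 95% intervals use the test's degrees of freedom. The fit was tested on simulated data. Counts were scaled to CPM, and to RPKM by exonic length in GENCODE M21 (GRCm38, the same assembly as mm10), which also gave positions, exon overlap and shared 50-base stretches. Ratios had 0.5 added to each count. Correlations of log2 CPM between replicates were 0.979 to 0.988.

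Named genes were the 10 genes, Rtf1, direct binding partners, and in each related list the 3 smallest adjusted p in each direction. The genes and lists were chosen with earlier results of these data known. The replicate numbers recur in both groups. Deviations from group means correlated by 0.270, 0.130 and 0.379 between libraries of equal number, so the replicate number was used as a block in an alternative. The main tests of genes and ratios did not pair libraries. The meaning of the numbers is not in the labels, and the correlation of control replicate 2 was higher with KO replicate 1 (0.204). Alternatives were DESeq2 (1.42.0), other scaling factors and filters, the replicate block, each library left out, and libraries 1 and 2 alone. Some values of the marker lists are not reported here.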

Additional observations from a re-analysis of the deposited data

How the results depend on the processing

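The 3 genes called lower and 3 called higher kept their direction and call under each of the 14 alternatives, which also include libraries 1 and 2 alone. With the replicate block 7 of the 10 genes were called, since Lag3 was added, and 7628 genes in all. Beyond Lag3 it changed no call among the other 9 genes, binding partners, counterparts and list genes for which it was tabulated. Neighbouring genes, cell type markers and the remaining list genes were not tabulated singly. The number called rose from 13 to 14 in the signalling list, and from 12 to 13 in the list of transcription factors and cytokine receptors. Directions of genes that were not called turned in some fits. Leaving out 1 library gave log2 fold changes from −0.76 to 0.017 for Lag3, −0.80 to 0.30 for Tigit, −0.38 to 0.34 for Vsir, −0.83 to 0.27 for Nectin3, −0.32 to 0.084 for Selplg, −0.17 to 0.21 for Cd28 and −0.34 to 0.41 for Icos. With libraries 1 and 2 alone Tigit was at 0.16, Vsir 0.39, Selplg 0.094 and Icos 0.27. With library size as the only scaling Vsir was at 0.032 and Icos at 0.051, and with the replicate block at 0.040 and 0.044. Cd28 was at −0.018 with upper-quartile factors, −0.0075 with DESeq2 and −0.0064 without a filter. The count of other inhibitory receptors called ran from 1 (without KO replicate 2) to 3, and that of the signalling list from 8 (without control replicate 1) to 13, as single libraries were left out. The causes were not tested. The 5 ratios kept their direction in all fits. Depth limits Cd160 and the control level of Havcr2, and intervals from counts cover counting error only.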

Other observations

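Control replicate 3 held the highest value of the 6 libraries for Lag3 (78.6 CPM), Tigit (18.9 CPM) and Vsir (80.9 CPM), and also for Icos (314 CPM, against 124 and 154 CPM in control replicates 1 and 2). Lilrb4a, an inhibitory receptor gene named after its values were seen, held 53.6 CPM in that library against 11.3 and 5.16 CPM in the other control libraries and 24.5, 29.5 and 39.5 CPM in KO. It was not called (log2 fold change 0.41, edgeR adjusted p = 0.654).

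Neighbours of the uncalled Vsir and Cd160 and of Havcr2 were called as well. Of all tested genes 46.1% were called, so such calls are not by themselves a result about these loci. Psap, a lysosomal protein gene 44254 bases from Vsir on chromosome 10, went from 212 to 477 CPM (log2 fold change 1.17, SE 0.148, edgeR adjusted p = 0.000592), while Vsir did not pass the test. Gm17455, on the other side of Vsir, rose from 0.167 to 1.35 CPM (2.87, adjusted p = 0.00542). Its control mean lay under the filter's cutoff of 0.325 CPM, so it could not pass through its control libraries alone. That call was therefore in part fixed by the filter. The neighbours of Cd160 parted, with Rnf115 higher (0.32, adjusted p = 0.0335) and Gpr89 lower (−0.62, adjusted p = 0.0198). Med7, a Mediator subunit gene 12214 bases from Havcr2 on chromosome 11, went from 13.1 to 28.0 CPM (1.10, SE 0.150, adjusted p = 0.000808). Ptms, 1976 bases from Lag3, was not called (0.023, adjusted p = 0.904). Neither were Fam174a, a neighbour of Pdcd1 (0.33, adjusted p = 0.207), and Zbtb20, a neighbour of Tigit (−0.59, adjusted p = 0.148).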
